A study of Homo sapiens with 8 samples.

Results

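NF-kB feedback and cytokine genes are described here in spheres of 4 lung cancer lines. The 10 genes were chosen by name, with earlier results of these data known: NFKBIA, NFKBIZ, TNFAIP3, NFKB1, NFKB2, RELB, BIRC3, ICAM1, IL1A and IL1B. All 10 were found among the 60106 genes of the count files, each once and as a protein-coding gene. All 10 passed the filter on low counts, as did 24185 genes in all. RNA was sequenced from pneumospheres, floating cultures grown from non-small cell lung cancer cells in flasks that cells do not stick to, in medium with growth factors and no serum. H23, H820 and H1975 are labelled adenocarcinoma and EBC1 squamous cell carcinoma. From every line came 1 library of untreated spheres and 1 of spheres kept for 15 min with 25 µg/ml PD-L1s, which is a soluble, synthetic version of the checkpoint ligand PD-L1, in medium free of serum. How the untreated spheres were handled during those minutes is not stated in the labels. With 1 library per line and condition, the 4 lines are the replicates of the treatment.

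NF-kB is a family of dimeric transcription factors held in the cytoplasm by inhibitors of the IkB type. Signals from the receptors for TNF, interleukin 1 or microbial products activate the IKK kinases, IkB is destroyed and the dimers enter the nucleus. Among the first genes they switch on are those of their own inhibitors, which ends the signal. In epithelial tumour cells the same factors drive survival genes, adhesion molecules and interleukin 1 cytokines.

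Total counts ran from 5559870 to 27524854 per library. Treated and untreated libraries were close in depth in H23 and H1975, but the treated library was 4.67 times as deep in EBC1 and 4.28 times as deep in H820. Mitochondrial genes took 4.07% of counts in untreated and 2.48% in treated H820, 1.65 and 0.972% in EBC1, and between 2.02 and 2.56% in the other lines. Epithelial markers (EPCAM, CDH1 and 3 keratins) summed to 1660 to 4090 CPM in EBC1, H820 and H1975 but to 145 and 143 CPM in H23, where the mesenchymal markers VIM, CDH2 and ZEB1 summed to 936 and 856 CPM. The mesenchymal sum was 386 to 450 CPM in EBC1 and H1975 and 5.41 and 6.59 CPM in H820. In H23 most of it was VIM (903 and 821 CPM), and ZEB1 was also highest there (30.76 and 31.85 CPM). CDH2 went the other way, at 2.53 and 2.61 CPM in H23 against 126 and 123 CPM in EBC1. In EBC1 the squamous markers TP63, KRT5, KRT14 and DSG3 summed to 0.192 and 0.313 CPM, so these markers did not bear out its label. The sum was 87.3 and 87.9 CPM in H1975, nearly all of it TP63 (87.1 and 86.6 CPM). The adenocarcinoma markers NKX2-1, NAPSA and SFTPB summed to 82.6 and 78.2 CPM in H1975, 37.9 and 58 CPM in H820, 7.06 and 6.68 CPM in H23, and 1.92 and 2.46 CPM in EBC1. Of other cell types, lymphoid markers summed to at most 1.13 CPM, and the pan-leukocyte gene PTPRC had 0 to 8 counts per library. Myeloid markers summed to 0.672 to 8.12 CPM in H23, EBC1 and H820 and to at least 28.2 CPM in H1975, most of it CSF1R. Fibroblast markers summed to 19.6 to 57.7 CPM and endothelial ones to 0.192 to 11.4 CPM. Fibroblast markers were highest in H820, and their part in the levels below was not tested.

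The stretches below show where letters of NF-kB or AP-1 motifs stand upstream of the genes, because most of these genes are textbook NF-kB targets. Promoter windows came from RefSeq (GRCh38.p14), and 9 of the 10 genes matched there with 14 windows in all. In the 250 bases before the start, the 10-letter NF-kB consensus was found on either strand in 8 of the 14 windows, belonging to 6 of the 9 genes, against 9.96% of all 35116 windows. Overlapping matches were counted as they stood. The AP-1 motif TGANTCA was found upstream of 1 of the 9 genes, IL1A, and in 6.57% of all windows. Neither the CRE motif TGACGTCA (1.65% of all windows) nor the SRF CArG box (1.16%) was found upstream of the 9 genes. Each stretch is printed 5′ to 3′ on the strand of its gene, with the NF-kB consensus in capitals, or, in IL1A, the AP-1 motif.
NFKBIA (chr14:35404801-35404850, minus strand): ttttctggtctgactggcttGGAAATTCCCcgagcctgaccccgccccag
NFKBIZ (chr3:101827747-101827796, plus strand): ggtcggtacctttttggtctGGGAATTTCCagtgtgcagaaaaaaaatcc
TNFAIP3 (chr6:137867172-137867233, plus strand): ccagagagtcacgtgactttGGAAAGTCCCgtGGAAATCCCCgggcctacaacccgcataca
NFKB1 (chr4:102501290-102501339, plus strand): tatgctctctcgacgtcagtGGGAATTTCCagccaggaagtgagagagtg
BIRC3 (chr11:102317265-102317314, plus strand): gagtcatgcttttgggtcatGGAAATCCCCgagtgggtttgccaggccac
BIRC3 (chr11:102317329-102317378, plus strand): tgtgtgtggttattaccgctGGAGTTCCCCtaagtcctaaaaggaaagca
IL1A (chr2:112784494-112784530, minus strand): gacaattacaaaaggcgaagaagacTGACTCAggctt

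In TNFAIP3 a pair of matches stood 67 and 55 bases before the start. The printed matches of NFKBIA, NFKBIZ and NFKB1 stood 81, 223 and 49 bases before it, and those of BIRC3 199 and 135 bases. A second NFKBIZ start had a match 239 bases before it. A second IL1A start had AP-1 motifs 105 and 55 bases before it, of which the one at 105 is the printed motif. NFKB2 held matches before 2 of its 3 starts, the nearest of them 21 bases away. A match is a run of letters and not a measured binding site, and no binding was measured in these samples.

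The levels of the 10 genes in the 4 lines come first. Levels are in CPM, counts scaled to the TMM-adjusted size of each library, and were compared between lines over the 2 libraries of each line, so the p-values reflect how far those 2 libraries spread, which says nothing of other tumours. In bulk RNA, fewer cells with a transcript and less of it per cell cannot be told apart. All 10 genes differed among the 4 lines (edgeR quasi-likelihood F test), as did 86.3% of all genes tested, so the count says little of these genes. Of the 60 tests of a gene between a pair of lines, 53 passed. The share of all genes called was 61.3% for H23 against EBC1, 58.9% for H23 against H820, 62.6% for H23 against H1975, 55.7% for EBC1 against H820, 52.7% for EBC1 against H1975 and 54.5% for H820 against H1975. H23 was the lowest line for 7 of the 10 genes, against 24.6% of all genes. That share was 15.5% with library size only, where the 10 genes were not recounted. H820 was the highest for 6, EBC1 for 3 and H23 for NFKB2, for which no share over all genes was computed. In 8 of the 10 both libraries of the highest line lay above the other 6 libraries, against 70.8% of all genes.

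**Figure D1:**
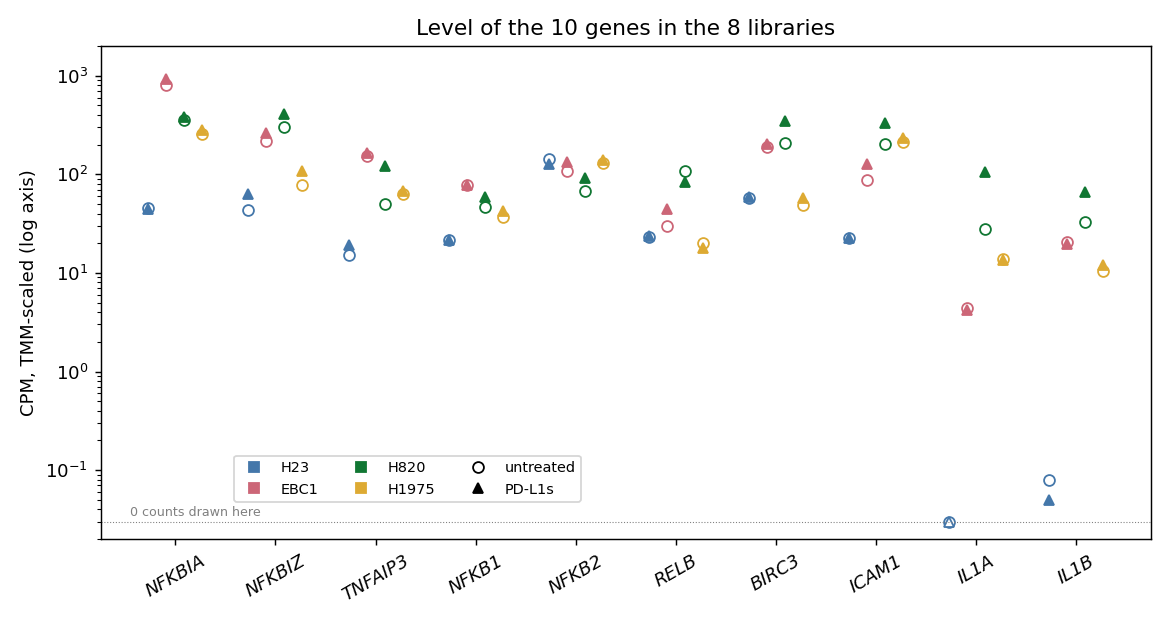
Level of each gene in TMM-scaled CPM on a log axis; colours are the lines, open circles the untreated and triangles the PD-L1s libraries, with 0 counts drawn on the dotted line. H23 lies lowest for IL1A (0 counts) and IL1B, while NFKB2 lies between 67.3 and 143 CPM in all 8 libraries.

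NFKBIA encodes IkB alpha, the inhibitor that holds NF-kB in the cytoplasm and is remade within minutes of its loss (chromosome 14, 35870717 to 35873952, GRCh37). It had 45.6 and 44.2 CPM in untreated and treated H23, 806 and 916 CPM in EBC1, 353 and 377 CPM in H820, and 259 and 279 CPM in H1975. The 4 lines did not overlap, and EBC1 stood 19.2-fold above H23 in mean level. The step between its middle lines was the smallest, log2 0.44 ± 0.164 (SE) for H820 over H1975 (adjusted p = 0.0303). That call was lost when any 1 of the 6 libraries other than those of H820 was left out (adjusted p = 0.0545 to 0.277) and with no filter on low counts (adjusted p = 0.139).

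NFKBIZ encodes IkB zeta, a nuclear member of the IkB family that helps to switch on a second set of targets (chromosome 3, 101546837 to 101579866). Its level was 43.9 and 62.6 CPM in untreated and treated H23, 216 and 262 CPM in EBC1, 300 and 405 CPM in H820, and 78.7 and 107 CPM in H1975. H820 was highest and H23 lowest, 6.62-fold apart in mean level, and the treated library was above its untreated partner in each line. Without the treated EBC1 library, the step from H820 to EBC1 (log2 -0.55 ± 0.153 for EBC1 against H820, adjusted p = 0.00508) was -0.41 and no longer passed (adjusted p = 0.109).

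TNFAIP3 encodes A20, an enzyme that edits ubiquitin chains and shuts the pathway off above IKK (chromosome 6, 138188325 to 138204449). It had 15.3 and 19.0 CPM in H23, 154 and 165 CPM in EBC1, 49.4 and 122 CPM in H820, and 63.1 and 67.2 CPM in H1975, untreated first. EBC1 was highest and H23 lowest, a 9.30-fold gap. H820 and H1975 did not differ beyond their spread (log2 0.33 ± 0.218, adjusted p = 0.211), and the 2 H820 libraries lay on either side of those of H1975. Without the treated H820 library the same contrast was -0.34 (adjusted p = 0.0995), and without the untreated one it was 0.82 (adjusted p = 4.56e-06).

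NFKB1 and NFKB2 encode the precursors p105 and p100, which act as inhibitors themselves until they are cut to the DNA-binding subunits p50 and p52. NFKB1 (chromosome 4, 103422486 to 103538459) had 21.8 CPM in both H23 libraries, 77.3 and 78.3 CPM in EBC1, 46.5 and 59.2 CPM in H820, and 36.7 and 42.4 CPM in H1975. EBC1 was highest, 3.57-fold above H23. The step from H820 to H1975, log2 0.42 ± 0.150 (adjusted p = 0.0229), was lost without any 1 of the libraries of H23 or H1975 or without the treated H820 library (adjusted p = 0.0562 to 0.244) and with no filter on low counts (adjusted p = 0.139).

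NFKB2 (chromosome 10, 104153867 to 104162286) was the most even of the 10, at 143 and 127 CPM in H23, 107 and 135 CPM in EBC1, 67.3 and 91.6 CPM in H820, and 129 and 138 CPM in H1975. H23, EBC1 and H1975 overlapped and none of their 3 pairs passed (adjusted p = 0.378 to 0.892). H820 lay below all of them, 1.70-fold under H23. That gap was lost against H23 without the untreated H23 library (adjusted p = 0.0533) and against EBC1 without the treated EBC1 library (adjusted p = 0.0556). RELB encodes the subunit that pairs with p52 in the slower, noncanonical branch (chromosome 19, 45504688 to 45541456). It had 23.1 and 23.8 CPM in H23, 30.1 and 44.9 CPM in EBC1, 107 and 83.2 CPM in H820, and 19.97 and 17.9 CPM in H1975. Both H820 libraries stood above all others, 2.54-fold over EBC1, and H23 and H1975 did not differ beyond their spread (adjusted p = 0.159). EBC1 was above H23 (adjusted p = 0.00315), but not without the treated EBC1 library (adjusted p = 0.396). Across the 8 libraries RELB and NFKB2 went opposite ways (Pearson r = -0.867 of log2 CPM), a description over 4 lines whose libraries come in pairs.

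BIRC3 encodes cIAP2, a ubiquitin ligase that keeps cells from dying after TNF (chromosome 11, 102188181 to 102210134). It had 57.2 and 58.9 CPM in H23, 189 and 201 CPM in EBC1, 209 and 348 CPM in H820, and 49.2 and 58.1 CPM in H1975. H820 and EBC1 formed the upper pair and H23 and H1975 the lower one, within which there was no difference beyond the spread (adjusted p = 0.564). The gap of H820 over EBC1 (adjusted p = 0.0236) was lost without the untreated EBC1, treated EBC1 or treated H820 library (adjusted p = 0.0732, 0.313 and 0.473). ICAM1 encodes an adhesion molecule that leukocytes bind (chromosome 19, 10381511 to 10397291). It had 22.4 CPM in both H23 libraries, 88.1 and 128 CPM in EBC1, 204 and 332 CPM in H820, and 213 and 232 CPM in H1975. H820 and H1975 overlapped (adjusted p = 0.268; 0.00877 without the untreated H820 library), with EBC1 below them and H23 11.98-fold under H820. An antisense gene, CTD-2369P2.8, shares 25.1% of the exon bases of ICAM1 on the opposite strand, and the counting kept strands apart.

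IL1A and IL1B encode the 2 forms of interleukin 1 that act through the same receptor, neighbours on chromosome 2 (113531492 to 113542167 and 113587328 to 113594480). IL1A had 0 counts in both H23 libraries, 4.41 and 4.16 CPM in EBC1, 27.7 and 106 CPM in H820, and 13.7 CPM in both H1975 libraries. With 3 counts in the H23 libraries together taken as the floor, the mean level of IL1A stood 1000-fold above that floor in H820. It was 205-fold above the floor in H1975 and 64.1-fold in EBC1, and 415-fold in the untreated H820 library alone. The floor allows for counting error in H23 only. For summed counts, the 95% interval of the ratio to H23 began at 1090 in H820, 166 in H1975 and 50.4 in EBC1. These intervals cover counting error only. IL1B had 2 counts and 1 count in H23 (0.0802 and 0.0502 CPM), 20.5 and 19.8 CPM in EBC1, 32.8 and 65.8 CPM in H820, and 10.6 and 12.1 CPM in H1975. Over its 3 counts in H23, the ratio of summed counts was 877 in H820, with a 95% interval of counting error from 300 to 4260. The deeper treated library weighs most in that sum, and the line means stood 756-fold apart. Both cytokine genes were thus highest in H820 and near or at 0 in H23, but EBC1 and H1975 changed places, with IL1A lower in EBC1 (log2 -1.90 ± 0.387, adjusted p = 4.92e-04) and IL1B higher there (log2 0.80 ± 0.216, adjusted p = 0.00416). The IL1A difference was lost without the treated EBC1 library (adjusted p = 0.14) and under DESeq2 (adjusted p = 0.0761), and the IL1B difference without the untreated EBC1 or the treated H1975 library (adjusted p = 0.0669 and 0.0638).

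Scaling bore on some of these steps. H23 carried TMM factors of 1.23 and 1.28 and EBC1 of 0.884 and 0.811. With library size only, 57 of the 60 tests passed. No share over all genes was computed for that scaling, so the count says little of these genes. RELB no longer differed between H23 and EBC1 with library size only (adjusted p = 0.504), and NFKB2 was called between H23, EBC1 and H1975. RELB (log2 0.69, adjusted p = 0.00159) and BIRC3 (log2 0.50, adjusted p = 0.00262) were then higher in H23 than in H1975, which TMM scaling did not show.

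Per kilobase of exon, levels can be set side by side between genes. NFKBIA led in 3 lines, with a mean of 453 CPM per kilobase in EBC1, 192 in H820 and 142 in H1975. In H23 NFKB2 led with 36.7 CPM per kilobase and NFKBIA followed with 23.6. ICAM1 reached 82.4 CPM per kilobase in H820 and 68.4 in H1975, NFKBIZ 84.1 in H820, and IL1A 31.6 and IL1B 30.2 in H820. The transcript of the inhibitor thus exceeded those of the subunits NFKB1, NFKB2 and RELB per length in EBC1, H820 and H1975, and lay below that of NFKB2 in H23.

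Genes with the most similar pattern were sought by Pearson r of log2 CPM over the 8 libraries, among 14720 genes. The measure reflects 4 lines with 2 libraries each, and many genes reach high values. The nearest to TNFAIP3 were OSMR (r = 0.996) and WFDC2 (0.995), and to NFKBIA ZDHHC5 (0.998) and SEMA7A (0.998). NFKBIZ lay closest to JAK1 (0.987) and PLS1 (0.987), IL1B to LMO7 (0.999) and ATP2C2 (0.999), and IL1A to TRAM1 and ALPK1 (0.996 each). BIRC3 lay closest to the TNF receptor gene TNFRSF1B (0.993) and G3BP2 (0.992), ICAM1 to TANC2 and GABARAP (0.996 each) and NFKB1 to CGNL1 (0.997) and CLEC2B (0.996). For NFKB2 they were AES (0.991) and NDUFB5 (0.984), and for RELB RP11-661A12.8 (0.984) and RWDD4 (0.983). Within the set, IL1A and ICAM1 were closest (0.983), then NFKB1 and NFKBIA (0.979) and NFKB1 and TNFAIP3 (0.973).

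The second comparison asks how these transcripts stood after 15 min of PD-L1s. NFKBIZ had the lowest unadjusted p of the 10. Set against its untreated partner, the treated library was 1.43-fold in H23, with a 95% interval of counting error from 1.31 to 1.55, and 1.21-fold in EBC1 (1.14 to 1.29). The same ratio was 1.35-fold in H820 (1.28 to 1.42) and 1.36-fold in H1975 (1.27 to 1.44). Over the 4 lines the fitted value was log2 0.42 ± 0.108 (SE, unadjusted p = 0.00124), which did not pass over all genes (adjusted p = 0.962; 0.197 to 1 in the alternatives that kept it uncalled). In H23 and H1975 alone, the lines with matched depth, NFKBIZ was 0.48 higher on the log2 scale and passed (adjusted p = 3.18e-06), the only one of the 10 to do so there, beside 0.125% of all genes. Its fitted value stayed between 0.34 and 0.48 in the 12 alternative fits, and in the other 11 it did not pass.

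**Figure D2:**
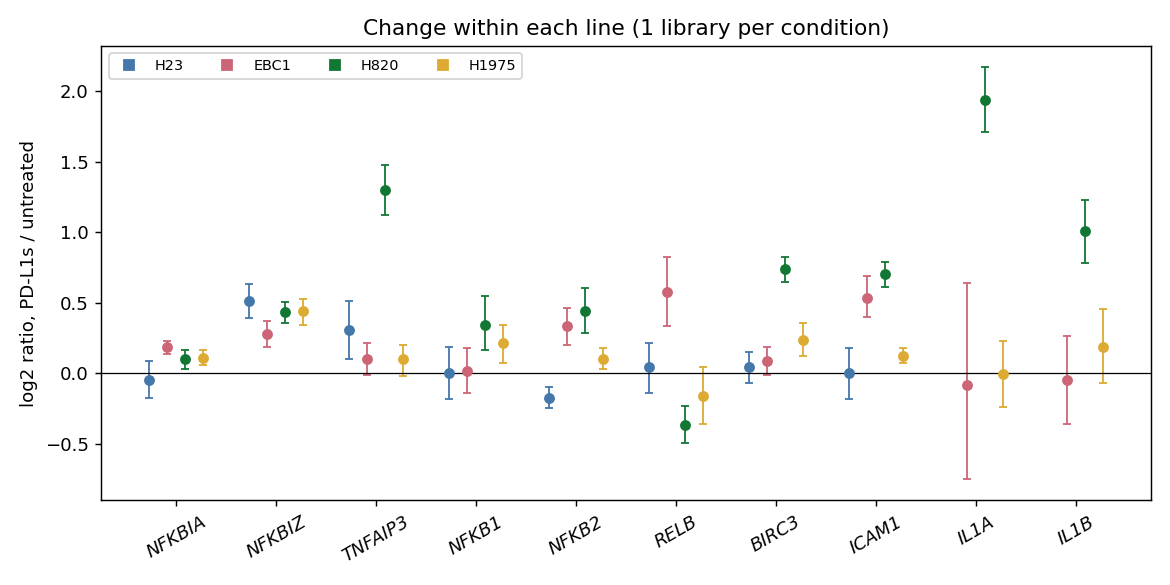
log2 ratio of treated to untreated CPM for each gene and line (colours), with bars for the 95% interval of counting error only; ratios with under 10 untreated counts (IL1A and IL1B in H23) are left out. NFKBIZ lies above 0 in all 4 lines, and IL1A, TNFAIP3 and IL1B stand out in H820.

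None of the 10 genes passed over the 4 lines by edgeR, by DESeq2 or by limma-voom, where edgeR called 0.0372% of all genes. At an unadjusted p under 0.05 there were 6 of the 10 by edgeR, against 3.61% of all genes. The genes were chosen with earlier results of these data known, so that count is a description and not independent support. All 10 fitted values were above 0 (RELB turned below it with RLE scaling or library size only), as were 60% of all genes, with a median of 0.31 against 0.04 for all genes tested. H820 had the highest median log2 ratio of the 10 at 0.57, and the other lines had 0.00 (H23), 0.14 (EBC1) and 0.12 (H1975). Leaving H820 out gave fitted values with a median of 0.10, against 0.02 for all genes. Of the 10 values 9 were then above 0, for which no share over all genes was computed. In 4 of the 10 genes (NFKBIZ, TNFAIP3, NFKB1 and BIRC3) the treated library was higher in every line, against 7.54% of all genes, though the log2 ratio of NFKB1 in H23 was 0.00147. With library size only these were 2 genes, NFKBIZ and ICAM1, against 5.6% of all genes, and TNFAIP3, NFKB1 and BIRC3 lay below 0 in EBC1 (-0.0261, -0.105 and -0.0385).

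The inhibitor NFKBIA differed little between the conditions. Its ratio was 0.969 in H23 (0.887 to 1.06), 1.14 in EBC1, 1.07 in H820 and 1.08 in H1975, and its fitted value log2 0.09 ± 0.116 (adjusted p = 1). TNFAIP3 had log2 0.43 ± 0.157 (adjusted p = 1), made of ratios of 1.24 in H23 (1.07 to 1.43), 1.07 in EBC1, 2.46 in H820 (2.18 to 2.79) and 1.07 in H1975. Of the subunits, NFKB1 had log2 0.14 ± 0.106 and NFKB2 0.17 ± 0.117, both with adjusted p = 1. RELB had log2 0.00 ± 0.132, and its sign turned under 9 of the 12 alternatives, RLE scaling and library size only among them. Its ratio was above 1 in EBC1 (1.49, 1.26 to 1.77) and below 1 in H820 (0.777, 0.710 to 0.853).

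BIRC3 had log2 0.28 ± 0.124, with ratios of 1.67 in H820 (1.57 to 1.77), 1.18 in H1975 (1.09 to 1.28), 1.06 in EBC1 and 1.03 in H23. ICAM1 had log2 0.34 ± 0.127, with ratios of 1.63, 1.09, 1.45 and 0.999 in the same order. The cytokine genes had the widest spread between lines. IL1A had log2 0.79 ± 0.287 and IL1B 0.40 ± 0.171, and without H820 the value of IL1A was -0.03. None of these passed (adjusted p = 1 each). For scale, FOS and FOSB, early genes of the AP-1 factor, had log2 2.19 ± 0.218 (adjusted p = 1.14e-04) and 2.65 ± 0.193 (adjusted p = 1.52e-06) in the same fit.

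H820 was set against the other 3 lines by an interaction term, for which H820 has 1 pair only, so that the other lines alone set the error. For IL1A and IL1B those are in effect EBC1 and H1975, since H23 had 0 counts of IL1A and 2 and 1 of IL1B. IL1A, TNFAIP3 and IL1B changed more in H820, 3 of the 10, where 2.99% of all genes were called. IL1A had 164 counts untreated and 2291 treated in H820, a ratio of 3.83 (3.27 to 4.52), against 0.943 in EBC1 (0.593 to 1.56), 0.995 in H1975 (0.845 to 1.17) and 0 counts in H23. The difference in log2 change was 1.96 ± 0.273 (adjusted p = 2.06e-05). For TNFAIP3 it was 1.14 ± 0.199 (adjusted p = 4.26e-04), and for IL1B 0.93 ± 0.255 (adjusted p = 0.038), with IL1B ratios of 2.01 in H820 (1.72 to 2.34), 0.966 in EBC1 and 1.14 in H1975. BIRC3 (0.62 ± 0.182, adjusted p = 0.0591), ICAM1 (0.48 ± 0.198, adjusted p = 0.234) and RELB (-0.50 ± 0.225, adjusted p = 0.298) did not pass, which does not show that the lines responded alike. NFKBIA and NFKBIZ differed from the other lines by 0.01 ± 0.184 and 0.03 ± 0.181, with the sign turning under some alternatives.

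**Figure D3:**
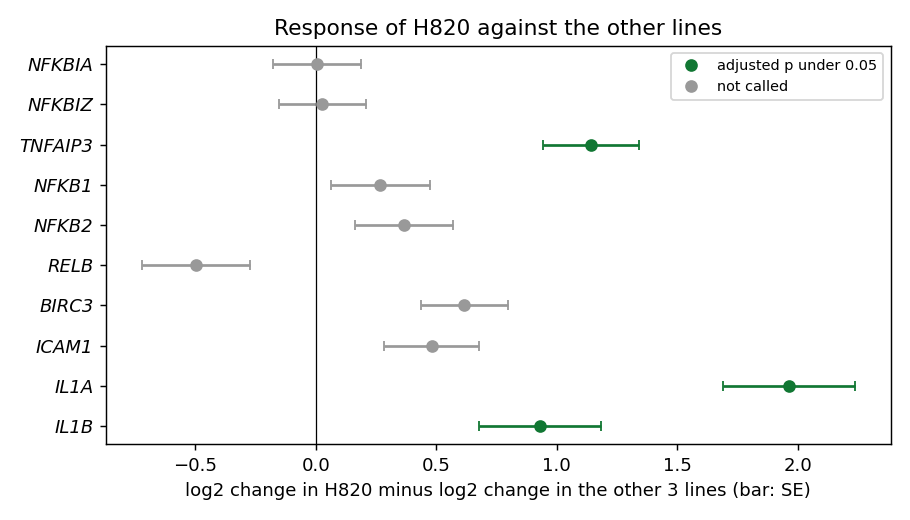
log2 change in H820 minus that in the other 3 lines for each gene, with SE bars; green marks an adjusted p under 0.05. IL1A (1.96), TNFAIP3 (1.14) and IL1B (0.93) passed, and RELB lies on the other side of 0 at -0.50.

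The 3 calls in H820 stand beside wider differences between its 2 libraries. Within H820, 13.1% of genes with enough counts (at least 50 in a library) were over 1.5-fold higher in the treated one. Of the 10 genes 5 were over 1.5-fold higher there, and none in H23, EBC1 or H1975, where 0.887, 8.1 and 0.718% of genes were. With library size only, the H820 ratio of each of the 10 genes moved beyond its counting interval. Those of BIRC3 and ICAM1 then fell under 1.5-fold (log2 0.507 and 0.471). The mitochondrial share and depth differed as given above, and epithelial markers summed to 1660 CPM in the untreated and 2660 CPM in the treated H820 library. Myeloid markers were lower in the treated one (8.12 and 6.91 CPM). The part of these in the result was not tested. Scaled by library size alone, all genes in this contrast had a median that moved from 0.06 to -0.15. Of 24185 genes 1055 were then called, against 724 with TMM scaling. IL1A and TNFAIP3 were still called while IL1B was not (adjusted p = 0.0686), and RELB was called lower in H820 (log2 -0.704). IL1B also failed when the minimum was 50 counts (adjusted p = 0.0702), and when H23 or H1975 was left out (adjusted p = 0.206 and 0.184). Those calls are read beside 1.54 and 1.64% of all genes called, and without EBC1, where 8.79% were called, 5 of the 10 passed, with BIRC3 and ICAM1 added.

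The same test of each other line gave no call among the 10 by edgeR, against 0.0207% of all genes in H23, 0.0124% in EBC1 and 0.0165% in H1975. At an unadjusted p under 0.05 there were 0 of the 10 in H23 (1.91% of all genes), 1 in EBC1 (RELB, log2 0.74 ± 0.250; 4.52%) and 1 in H1975 (IL1A, -1.35 ± 0.445; 1.45%).

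Other genes of the pathway were taken from a list of 103, of which 97 passed the filter on low counts. None passed over the 4 lines by edgeR, against 0.0372% of all genes, and 12 had an unadjusted p under 0.05, against 3.61%. This list too was chosen with earlier results of these data known, so the count is a description only. Of the fitted values 79 were above 0, as were 60% of all genes, with a median of 0.09 against 0.04 for all genes. Among negative regulators ZC3H12A, an RNase that cuts cytokine transcripts, had log2 0.34 ± 0.112, and TNIP3, a partner of A20, 0.38 ± 0.195. The acute-phase gene SAA1 had 0.51 ± 0.135 (adjusted p = 0.977), and KLF6 0.31 ± 0.119. Of ligands, TNFSF10, the death ligand TRAIL, had 0.39 ± 0.159. The 5 IKK kinase genes had fitted values from -0.24 ± 0.148 for IKBKE to -0.01 ± 0.104 for TBK1, all below 0, as were 40% of all genes. The lines did not share that sign, with TBK1 higher in 3 of the 4, and with no filter on low counts 4 of the 5 were below 0. None of the 20 adaptors and upstream kinases had an unadjusted p under 0.05. The subunit genes RELA and REL had 0.17 ± 0.106 and 0.05 ± 0.111. Adjusted p was 1 for all of these but SAA1.

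**Figure D4:**
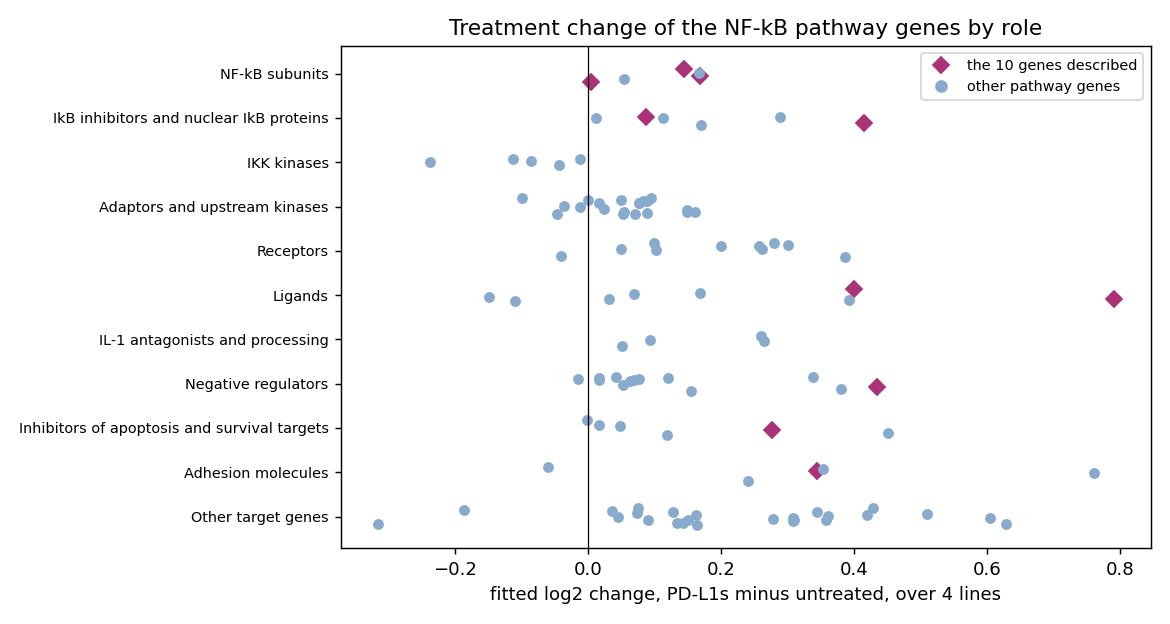
Fitted log2 change over the 4 lines for the 10 genes (diamonds) and 97 other pathway genes (circles), by role. The 5 IKK kinases lie below 0 and all 10 diamonds above 0 (RELB turned below it with RLE scaling or library size only), and none passed the test.

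In H820 against the other lines, 5 of the 97 were called, 4 higher and 1 lower, against 2.99% of all genes. LIF, a cytokine of the interleukin 6 family, had 24.2 and 82.1 CPM in untreated and treated H820 and a difference of 1.71 ± 0.208 (adjusted p = 2.2e-06). The others higher were PLAU, the urokinase gene (1.27 ± 0.200, adjusted p = 1.1e-04), CCL20 (1.42 ± 0.311, adjusted p = 0.00608) and IL1RAP, the second chain of the interleukin 1 receptor (0.93 ± 0.199, adjusted p = 0.00505). The one lower was SQSTM1, an autophagy receptor (-0.81 ± 0.203, adjusted p = 0.0217), at 840 and 485 CPM in H820. LIF, PLAU, CCL20 and SQSTM1 are named here for having passed, outside the rule for named genes. FOS itself rose more in H820 than in the other lines (1.56 ± 0.300, adjusted p = 0.00151).

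Between lines, 94 of the 97 differed, beside the 86.3% of all genes. H23 had the lowest mean level for 59 of the 97 (60.8%), against 24.6% of all genes. With library size only it was 42 (43.3%), against 15.5%. The lymphotoxin receptor gene LTBR had a mean of 0.632 CPM in H23 and 65.1 to 191 CPM in the other lines, and the kinase gene IKBKE 0.271 CPM against 23.6 to 34.5 CPM. TNFAIP2 had 16.9 CPM against 598 to 1110, ZC3H12A 6.72 against 58.8 to 233, and SAA1 0.13 against 16.0 to 114. Others ran against that order, with MAP3K14, the kinase of the noncanonical branch, at 44.7 CPM in H23 and 42.3 in EBC1 but 7.91 in H820 and 10.7 in H1975, and ICAM5 highest in H23 at 51.2 CPM. Of the interleukin 1 machinery, IL1RAP had its highest mean in H1975 at 363 CPM, the receptor antagonist gene IL1RN had 0 in H23 and 5.34 CPM in H1975, and CASP1, the enzyme that processes IL1B, at most 8.56 CPM.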

How the data were processed

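The deposited files hold raw counts, 1 for each read pair that fell on a gene. Per the labels' protocols, total RNA libraries were made after removal of ribosomal RNA with a kit that keeps the strand. STAR 2.7.3a and featureCounts (Subread 2.0.0) on GRCh37 are named per the submitters' processing notes. Per the file headers, exons of GENCODE release 28 lifted to GRCh37 were counted with reverse strand, and pairs over several genes counted for each.

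Counts were fitted with edgeR 4.0.16 (R 4.3.3, quasi-likelihood F test, two-sided, TMM scaling, line plus treatment) after its filter at a minimum count of 10. Adjusted p-values are Benjamini-Hochberg over 24185 genes, called under 0.05. Each ± value, called SE, is the absolute log2 value divided by the square root of its F. It is thus derived from the test and not estimated separately. Lines pair the libraries, per the labels: r across genes was 0.973 to 0.993 within lines and at most 0.87 between. Ratios within lines carry exact binomial (Clopper-Pearson) intervals at 95%, which cover counting error only. The treatment, line-pair and H820 interaction fits were checked on simulated data. Alternatives used DESeq2 1.42.0, limma-voom 3.58.1, other scalings and filters, and left-out lines or libraries. All 10 genes are named. Of a list of 103 other pathway genes, up to 3 per role by treatment p and up to 3 by line p were named, with the 2 genes most like each of the 10. The genes and lists were chosen with earlier results of these data known.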

Additional observations from a re-analysis of the deposited data

Results flagged for a closer look

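The response of H820 differed from that of the other 3 lines, by a test of the difference itself, in IL1A (1.96 on the log2 scale), TNFAIP3 (1.14) and IL1B (0.931). H820 has 1 library per condition, so the error comes from the other lines. For IL1A and IL1B those are in effect EBC1 and H1975, since H23 had 0 counts of IL1A and 2 and 1 of IL1B. The IL1B call was lost with library size only (adjusted p = 0.0686), at a minimum count of 50 (0.0702) and without H23 (0.206) or H1975 (0.184), by edgeR. In the groups of 4 libraries, the H820 library stood far from the rest for RELB untreated, at 107.1 CPM with the next at 30.13, and for IL1A with PD-L1s, at 106.3 CPM with the next at 13.66. In each the gap to the nearest library took 0.883 (RELB) and 0.871 (IL1A) of the whole range, above Dixon's limit for 4 values. There were 20 such groups. A chance rate of about 1 in 20 would need 4 values drawn from a single population. These are 4 different lines, so the limit only picked values for a closer look.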

How the results depend on the processing

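The count of genes called over the 4 lines was 9. It was 15 with library size only, 98 with no filter on low counts, 3 at a minimum count of 50 and 28 with H23 and H1975 only. It was 0 with no replicate block, that is without the pairing by line, a fit that also called none of the 10 genes. Leaving out a line gave 5 (without EBC1) to 20 (without H23), with 19 without H1975 and 8 without H820. Of the 10 genes 1 passed with no filter on low counts (IL1A, adjusted p = 0.00715) and 1 with H23 and H1975 only (NFKBIZ), and 0 in each of the other 10 alternatives.

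RELB turned below 0 with RLE scaling (-0.0206), library size only (-0.0764), DESeq2 (-0.0132), limma-voom (-0.0194), a minimum count of 50 (-0.0435), no replicate block (-0.0847) and H23 and H1975 only (-0.0538). It lay between -0.194 and 0.131 with a line left out. With H23 and H1975 only, NFKB2 was at -0.0347 and IL1A at -0.0101, and with a line left out IL1A ran from -0.0315 (without H820) to 1.29.

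The number of genes differing among lines was 10 in all 15 alternatives, and 47 to 57 of the 60 pair tests passed. No shares over all genes were computed for these alternatives. With a library left out, signs turned within these ranges: NFKB2 H23 against EBC1 -0.0771 to 0.416, NFKB2 H23 against H1975 -0.234 to 0.259 (also -0.0298), NFKB2 EBC1 against H1975 -0.265 to 0.0142, BIRC3 H23 against H1975 -0.0612 to 0.286, TNFAIP3 H820 against H1975 -0.34 to 0.824 and ICAM1 H820 against H1975 -0.0341 to 0.467. The highest TNFAIP3 and ICAM1 values, without the untreated H820 library, passed.

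For H820 against the other lines, 2 to 5 of the 10 passed when another line was left out, an alternative chosen after seeing the data. The signs of NFKBIA and NFKBIZ turned with library size only (-0.196 and -0.175), a minimum count of 50 (-0.0859 and -0.064), and without H23 (-0.132 and -0.000436), EBC1 (-0.0147 and -0.105) or H1975 (-0.0569 and -0.0325). IL1A (1.77 to 2.04) and TNFAIP3 (0.949 to 1.21) passed in all 7 alternatives. BIRC3 passed with RLE scaling (adjusted p = 0.0208), where 1079 of 24185 genes were called. RELB passed with library size only (-0.704, adjusted p = 0.0159), in the direction opposite to IL1A and TNFAIP3, where 1055 were called. Ratios within lines moved beyond their counting interval in 14 of 80 recalculations, all of them with library size only. They were those of all 10 genes in H820, and of BIRC3, NFKBIA, NFKBIZ and TNFAIP3 in EBC1. The TMM factors of H820 were 1.063 untreated and 0.906 treated. There IL1A went from log2 1.93 to 1.7 and NFKBIA from 0.093 to -0.138. The cause of these shifts was not tested. At 5559870 to 27524854 counts a library, 3 counts are 0.120 to 0.576 CPM.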
